A study of Homo sapiens with 18 samples.

Results

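The genes described here are 37 that code for chaperones, folding enzymes, sensors and disposal proteins of the endoplasmic reticulum (ER) and the unfolded protein response. They were chosen by gene symbol, from what their products are known to do, out of 26900 symbols in the table. All 37 were matched to 1 row each. They comprise 12 chaperones and co-chaperones, 7 disulfide enzymes, 6 sensors and transcription factors, 8 proteins of ER-associated degradation and 4 of protein translocation.

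RNA was measured in 16D, an established castration-resistant prostate cancer cell line derived from LNCaP. All cells had received Cas9 and a guide RNA by lentivirus: a control guide (sgAAVS), or guide 1 or guide 2 against OGDHL, a gene for a 2-oxoglutarate dehydrogenase-like enzyme of mitochondria. Each line was then kept for 6 weeks in vehicle (DMSO) or in 10 µM enzalutamide, an androgen receptor inhibitor, which gave 6 groups of 3 libraries. All groups, controls included, carry Cas9 and a guide. The labels do not say whether the cells were clones or pools, or whether the 3 libraries of a group were separate cultures. The spread behind each p-value is therefore that of the libraries at hand and may be technical. The design asks how androgen receptor inhibition, and loss of OGDHL with or without it, change the transcriptome.

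Secreted and membrane proteins enter the ER through the Sec61 channel, are folded there by chaperones such as BiP (HSPA5) and by protein disulfide isomerases, and are returned to the cytosol for destruction when folding fails. The sensors IRE1 (ERN1), ATF6 and PERK (EIF2AK3) respond to unfolded protein: IRE1 splices XBP1 mRNA into a form that codes for an active transcription factor, cleaved ATF6 enters the nucleus, and PERK slows translation through eIF2α. XBP1 and ATF6 activate many chaperone genes through the ER stress element in their promoters. Luminal prostate cells secrete large amounts of protein, and the androgen receptor is known to act on IRE1 and XBP1 in prostate cancer.

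Values are TPM, a transcript abundance scaled for gene length and library size, after mitochondrially encoded genes were removed and each library was rescaled to the same sum. Those genes held 50.1% to 73.8% of the deposited TPM, with the widest spread in guide 1 cells in vehicle (73.8%, 69.9% and 57.2%). TPM keeps no read totals, so the depth behind a value is unknown. A log2 change is on the scale of log2(TPM + 1), given with its standard error (SE), and a gene was called where limma gave an adjusted p under 0.05 over 16067 tested genes. Of the 37 genes, 22 share exon sequence with another annotated gene, 20 of them with 1 on the opposite strand; the kit marks strand, but whether the counting used it is not given in the sources used here. All 37 genes passed the filter on low values (1 TPM or more in at least 3 libraries), and their lowest value in any library was 2.09 TPM.

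The RNA of OGDHL, the targeted gene, was above control levels in 1 of the groups labelled with a guide against it. It stood at 4.68, 4.86 and 4.62 TPM in control cells in vehicle, at 1.93, 2.29 and 3.16 with guide 1, and at 6.17, 7.31 and 6.54 in the libraries labelled guide 2 in vehicle, all of them above the controls. In enzalutamide it stood at 7.63, 7.85 and 7.43 in controls, 2.56, 2.62 and 2.30 with guide 1 and 4.14, 4.33 and 4.35 with guide 2. The libraries labelled guide 2 in vehicle also stood apart from all others: their log2 values correlated with those of other groups at 0.887 to 0.920, against 0.950 to 0.996 for all other pairs of libraries. They had 1407 to 1630 rows at 0, against 3042 to 4498 elsewhere. KLK3, an androgen receptor target, ranged from 126 to 136 TPM in control cells on enzalutamide and from 805 to 851 in vehicle, but from 1951 to 2145 in guide 1 cells on enzalutamide, above every vehicle library. Editing and protein were not measured, so the level of OGDHL RNA does not tell whether a label holds. The part of these library differences in the results below was not tested.

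The prostate luminal markers, all 12 of which were tested, moved with drug and guide: their summed level was 3549 to 3648 TPM in control cells in vehicle, 2372 to 2552 in control cells on enzalutamide, 5789 to 6214 with guide 1 on the drug and 2881 to 2995 with guide 2 on the drug. In vehicle it was 3382 to 3911 with guide 1 and 2978 to 3138 in the libraries labelled guide 2. Of the leukocyte markers 3 of 6 reached the filter, of the fibroblast markers 2 of 6 (summed level 8.64 to 19.5 TPM) and of the endothelial markers 0 of 4 (0.127 to 0.995 TPM). The part of these levels in the results was not tested. In these bulk samples, fewer cells of a type and less RNA per cell cannot be told apart.

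ER stress elements were searched in the promoters, since genes that share such an element are known to respond together to XBP1 and ATF6. RefSeq windows from 250 bases before to 50 bases after the start of transcription (GRCh38.p14) were matched for 34 of the 37 genes. The ER stress element (CCAAT, 9 bases of any kind, CCACG, searched on both strands) was found in 9 of the 34, or 26.5%. It was found in 0.0916% of the 27305 genes with such a window, and in 0.173% of the 10397 of them that were tested. A shorter relative, ER stress element II (ATTGGNCCACG), was found in HYOU1, SDF2L1 and HERPUD1, against 0.0696% of genes and 0.115% of tested genes. The core TGACGTGG of the unfolded protein response element was found in HYOU1 and DNAJC10, against 0.927% of genes and 1.23% of tested genes. The 37 genes were chosen as members of the response that these elements serve. A higher share among them was therefore built into the choice and is no result of these data. The sites are shown because they are what sets these promoters apart in letters. Each is written on the strand that reads CCAAT or ATTGG first, fixed bases in capitals.
HSPA5: CCAATcggcggcctCCACG
HSP90B1: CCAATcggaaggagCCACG
HSP90B1, other site: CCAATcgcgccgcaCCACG
CALR: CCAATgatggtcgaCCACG
CANX: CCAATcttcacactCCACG
CRELD2: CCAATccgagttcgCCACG
PDIA6: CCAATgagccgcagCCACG
ERO1B: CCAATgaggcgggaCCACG
XBP1: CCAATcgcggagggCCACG
SERP1: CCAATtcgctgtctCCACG
HYOU1, element II, at 2 places: ATTGGaCCACG
SDF2L1, element II: ATTGGtCCACG
HERPUD1, element II: ATTGGgCCACG

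The element of HSPA5 lay at bases -66 to -48 from the start and that of XBP1 at -52 to -34. CANX had the site in 3 overlapping windows of different start sites. A match is a description of letters, and no binding was measured here. The genes with the ER stress element did not all move in 1 direction. With enzalutamide in control cells 2 of the 9 rose and 4 fell (median log2 change -0.12). Of the 25 without it, among them the 3 genes with element II, 0 rose and 18 fell (median -0.33). Of all tested genes 23.1% rose and 24.8% fell. With guide 1 in enzalutamide 6 of the 9 rose and 1 fell, and of the 25 13 rose and 1 fell, against 16.3% and 14.3% of all tested genes.

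The 37 genes together were a small part of the non-mitochondrial transcripts, and a few chaperones carried most of that. Their summed level was 11451 to 12109 TPM in control cells in vehicle, or 1.15% to 1.21% of the total, and 10138 to 10725 TPM in control cells on enzalutamide. With guide 1 it was 11827 to 12069 in vehicle and 11392 to 12317 on enzalutamide. With guide 2 it was 9202 to 9481 on enzalutamide, and 9455 to 9635 in the libraries labelled guide 2 in vehicle. So both guide 2 groups lay below every other group, and control cells on enzalutamide lay between them and the rest. With the deposited TPM this order did not hold: guide 1 cells in vehicle had a mean of 3936, below the libraries labelled guide 2 in vehicle (4328) and drug controls (4609). HSPA5, CALR and HSP90B1 alone held 65.1% to 69.1% of the sum.

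In TPM, which is scaled by gene length, the order of levels in control cells in vehicle was led by HSPA5 at 3167 ± 148 (SD, n = 3) and CALR at 3062 ± 54.7, whose library ranges overlapped. HSP90B1 (GRP94) followed at 1483 ± 54.5 and MANF, a secreted ER stress factor that binds BiP, at 945 ± 39.1. ERO1B was lowest at 2.51 ± 0.109, and the sensors came next: ERN1 at 3.09 ± 0.12, ATF6 at 3.15 ± 0.141 and EIF2AK3 at 2.89 ± 0.163, 3 levels whose library ranges overlapped. XBP1 mRNA stood at 214 ± 8.01, far above the sensor that splices it. The table gives 1 value per gene and does not separate spliced from unspliced XBP1.

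**Figure D1:**
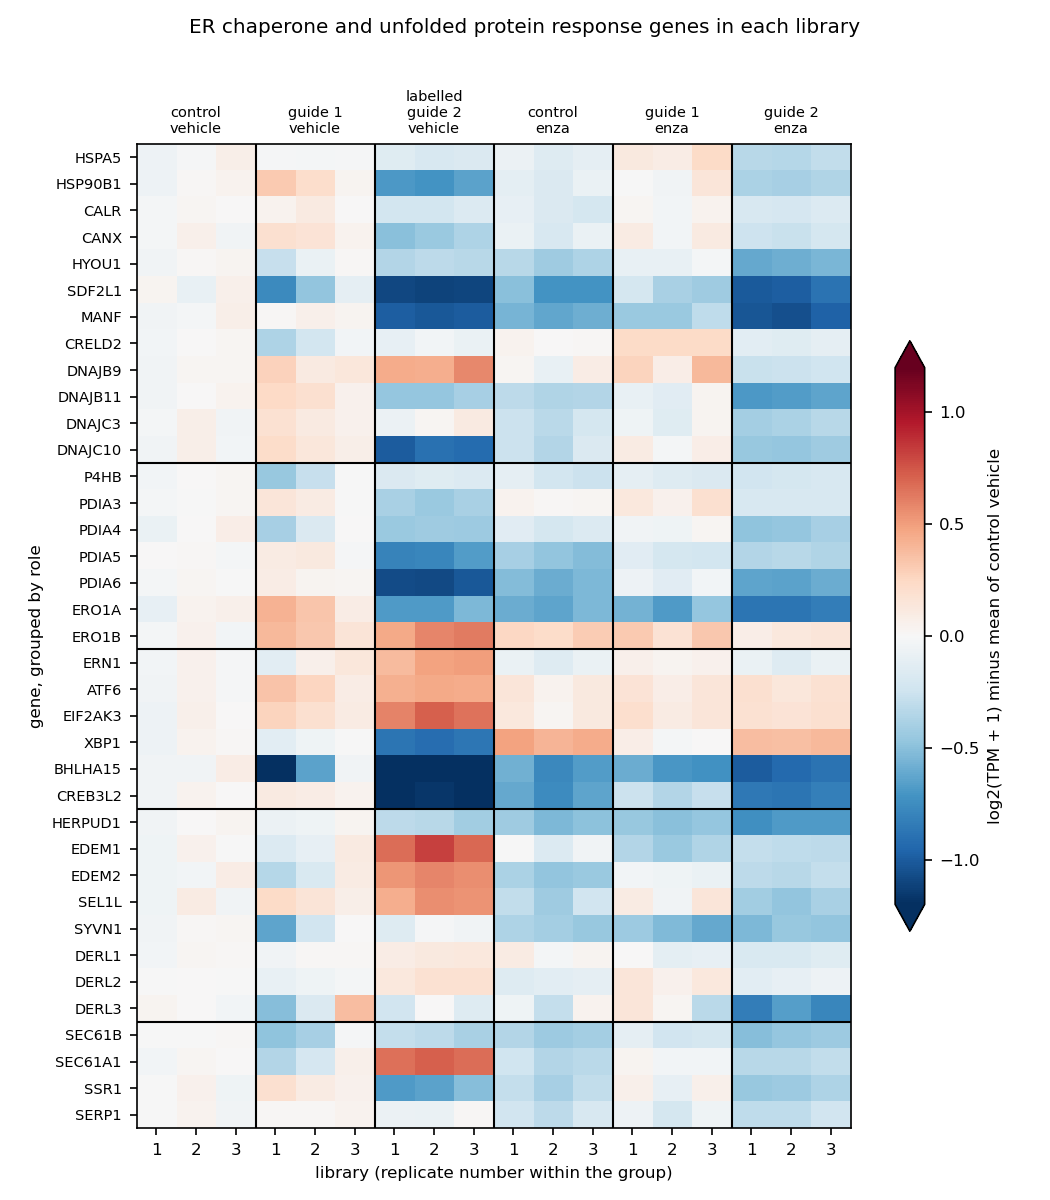
Level of each of the 37 genes in each of the 18 libraries, as log2(TPM + 1) minus the mean of the 3 control vehicle libraries; rows are genes by role, columns are libraries, red is higher and blue is lower, and colours end at the limits of the scale. The column blocks of control and guide 2 cells on enzalutamide are mostly blue, and XBP1 is red in both.

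Enzalutamide in control cells went with lower levels of most of these genes and a higher level of XBP1. Of the 37 genes 22 fell and 2 rose, against 24.8% and 23.1% of all tested genes (47.9% called in either direction). The median log2 change of the 37 was -0.25, against -0.01 over all tested genes. By role, 8 of 12 chaperones, 3 of 7 disulfide enzymes, 2 of 6 sensors and factors, 5 of 8 degradation proteins and all 4 translocation proteins fell.

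Among the chaperones, MANF was at 915, 931 and 989 TPM in vehicle and at 641, 612 and 627 on enzalutamide. The groups did not overlap, and the mean fell by 33.7% (log2 change -0.59, SE 0.04, adjusted p = 2.6e-08). SDF2L1, part of the BiP chaperone complex, was at 147, 135 and 149 in vehicle and 101, 87.1 and 87.1 on the drug, again without overlap (log2 change -0.64, SE 0.12, adjusted p = 0.000475). HYOU1 (log2 change -0.38), an exchange factor for BiP, and the BiP co-chaperones DNAJB11 (-0.34), DNAJC3 (-0.26) and DNAJC10 (-0.26) fell as well.

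The most abundant chaperones moved less. HSPA5 was at 3038, 3134 and 3329 TPM in vehicle and 3012, 2838 and 2933 on enzalutamide. The highest drug library was just below the lowest vehicle library. The mean fell by 7.55% (log2 change -0.11, SE 0.04, adjusted p = 0.036), a call that was lost on leaving out control vehicle library 2 or 3 (adjusted p = 0.0612 and 0.178) or control enzalutamide library 2 or 3 (0.137 and 0.0749). CALR, the lectin chaperone calreticulin, fell with a log2 change of -0.16. HSP90B1 was at 1423, 1494 and 1530.4 in vehicle and 1368, 1313 and 1405 on the drug, lower in each library but not called (log2 change -0.12, SE 0.06, adjusted p = 0.128). CANX (-0.12), CRELD2 (0.02) and DNAJB9 (0.01) did not pass the test either. DNAJB9, a co-chaperone known as a target of XBP1, was at 40.0, 42.1 and 41.9 in vehicle and 42.0, 38.7 and 44.0 on the drug, with overlapping groups.

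The promoter of HSPA5 (chr9:125241294-125241593, minus strand, GRCh38.p14, RefSeq) is shown as the textbook carrier of the element, with the bases of the element in capitals.
HSPA5 promoter: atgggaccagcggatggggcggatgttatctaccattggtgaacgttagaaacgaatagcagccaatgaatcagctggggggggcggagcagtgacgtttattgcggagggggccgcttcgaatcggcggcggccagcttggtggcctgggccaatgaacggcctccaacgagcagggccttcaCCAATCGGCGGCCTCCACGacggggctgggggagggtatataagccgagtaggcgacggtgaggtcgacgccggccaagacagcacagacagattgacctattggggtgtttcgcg

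Of the disulfide enzymes, PDIA6 was at 98.2, 101 and 99.1 TPM in vehicle and 69.1, 65.5 and 68.1 on enzalutamide. All drug libraries lay below all vehicle libraries, and the mean fell by 32.1% (log2 change -0.55, SE 0.04, adjusted p = 7.18e-09). ERO1A, the oxidase that drives disulfide formation, was at 8.39, 9.38 and 9.47 in vehicle and 5.65, 5.50 and 5.91 on the drug, also without overlap (log2 change -0.59, SE 0.08, adjusted p = 1.6e-05), and PDIA5 fell too (-0.47). ERO1B, its paralog, rose: it was at 2.45, 2.64 and 2.44 in vehicle and 3.17, 3.08 and 3.33 on the drug, without overlap (log2 change 0.26, SE 0.06, adjusted p = 0.0031). P4HB, PDIA3 and PDIA4 did not pass the test, with log2 changes of -0.19, 0.03 and -0.17. PDIA3 is uncertain, because its near-identical copy PDIA3P1 is listed at up to 518 TPM.

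XBP1 was at 205, 221 and 216 TPM in vehicle and 299.9, 285 and 292 on enzalutamide. Each drug library exceeded each vehicle library, and the mean rose by 36.6% (log2 change 0.45, SE 0.04, adjusted p = 3.35e-07). The sensors were not called: ERN1 was at 3.00, 3.23 and 3.05 in vehicle and 2.86, 2.66 and 2.88 on the drug (log2 change -0.11, 95% interval -0.23 to 0.02), lower in each drug library but not called. ATF6 was at 3.03, 3.31 and 3.11 in vehicle and 3.60, 3.29 and 3.50 on the drug, with overlap. EIF2AK3 was at 2.72, 3.05 and 2.90 in vehicle and 3.24, 2.96 and 3.23 on the drug, also with overlap. The log2 changes of ATF6 and EIF2AK3 were 0.10 (95% interval -0.01 to 0.22) and 0.09 (-0.02 to 0.20). The secretory-cell transcription factors CREB3L2 and BHLHA15 (MIST1) fell. CREB3L2 went from 8.11, 8.69 and 8.42 to 5.13, 4.58 and 5.06 TPM, without overlap (log2 change -0.67, SE 0.04, adjusted p = 8.02e-09). BHLHA15 went from 49.6, 49.5 and 54.2 to 33.9, 29.4 and 31.8, also without overlap (log2 change -0.67, SE 0.19, adjusted p = 0.00927).

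XBP1 lies at chr22:28794555-28800597 on the minus strand (GRCh38, GENCODE). ERO1B, the other gene of the 37 called higher with enzalutamide in control cells, carries the ER stress element as XBP1 and HSPA5 do. The promoter of XBP1 (chr22:28800520-28800819, minus strand, GRCh38.p14, RefSeq) is shown because XBP1 moved against most of the other genes, with the element in capitals.
XBP1 promoter: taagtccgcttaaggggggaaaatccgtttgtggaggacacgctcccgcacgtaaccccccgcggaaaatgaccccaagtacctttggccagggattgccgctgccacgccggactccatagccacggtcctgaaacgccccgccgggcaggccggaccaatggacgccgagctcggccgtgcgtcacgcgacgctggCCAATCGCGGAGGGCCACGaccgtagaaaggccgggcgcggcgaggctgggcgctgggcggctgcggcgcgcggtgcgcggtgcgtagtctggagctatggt

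Among the degradation genes, HERPUD1, which organises the ubiquitin ligase complex at the ER membrane, was at 106, 109.9 and 112 TPM in vehicle and 81.2, 74.8 and 77.6 on enzalutamide. Its groups did not overlap (log2 change -0.49, SE 0.04, adjusted p = 1.65e-07). EDEM2 (-0.43), SYVN1 (-0.41), SEL1L (-0.32) and DERL2 (-0.13) fell. SYVN1 is the ligase HRD1 and SEL1L its partner. EDEM1, a mannosidase-like protein that sends glycoproteins to degradation and is a known XBP1 target, was at 42.6, 45.9 and 44.2 and 43.9, 39.5 and 43.1, with overlap (log2 change -0.07, not called). DERL1 and DERL3 were not called (0.04 and -0.10). The Sec61 channel subunits SEC61B (-0.40) and SEC61A1 (-0.31), the translocon-associated SSR1 (-0.33) and SERP1 (-0.25) all fell.

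With the deposited TPM, mitochondrial genes kept, 0 of the 37 rose and 8 fell with enzalutamide in control cells. Leaving out 1 library at a time gave 23 to 29 calls, and leaving out the libraries labelled guide 2 in vehicle gave 2 up and 21 down.

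**Figure D2:**
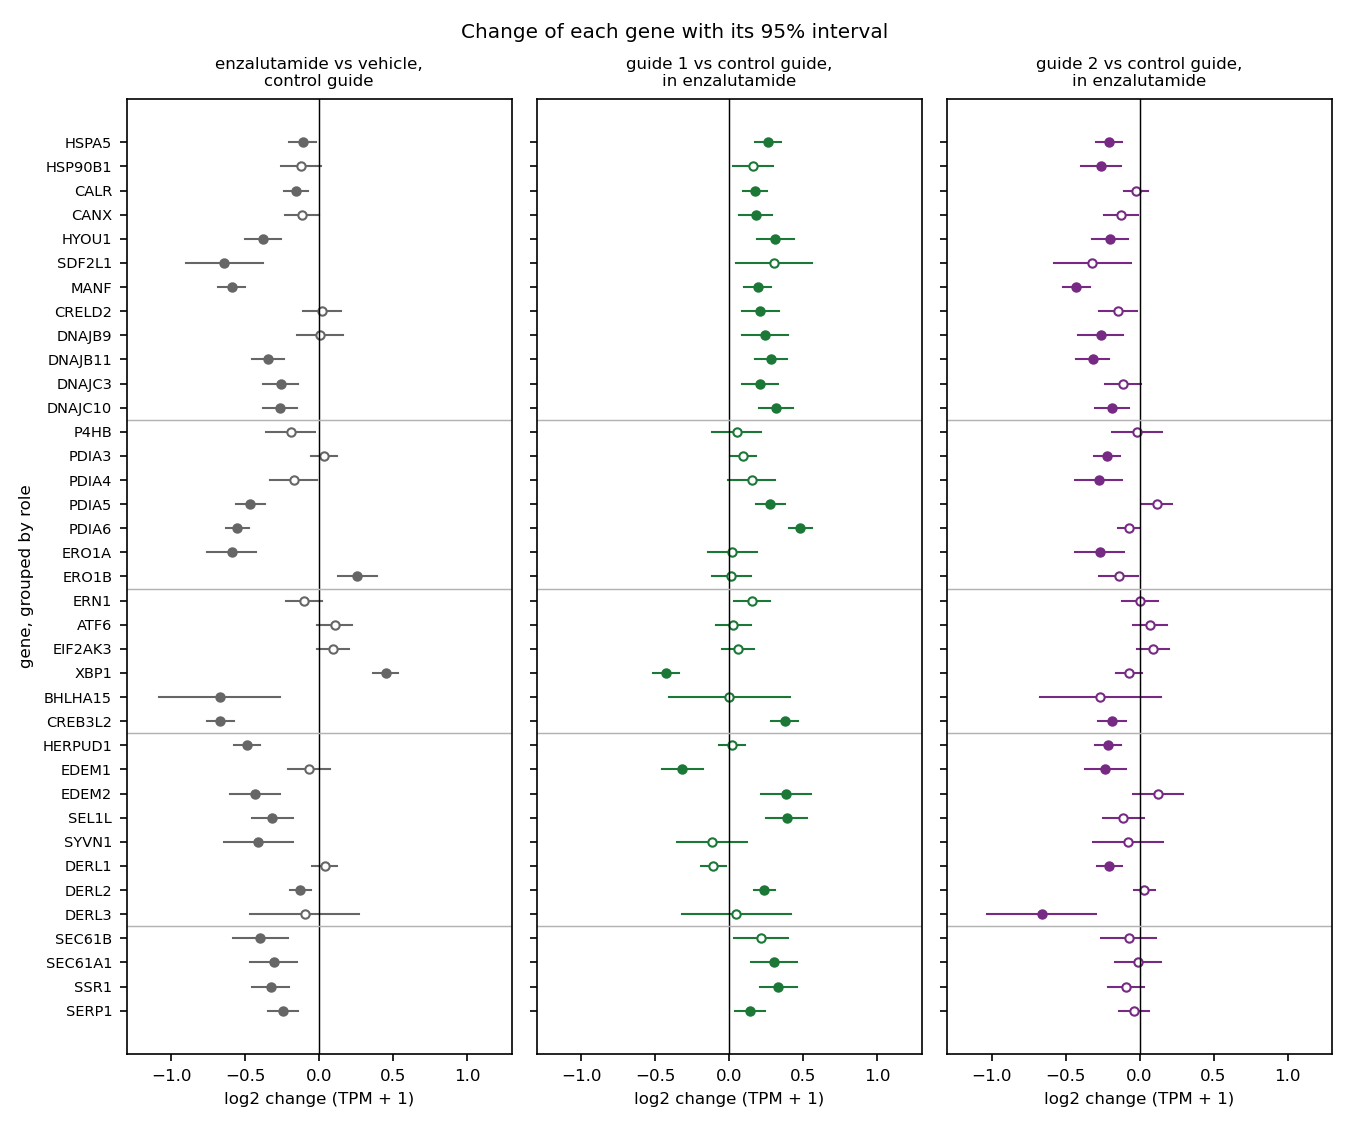
Log2 change of each gene with its 95% interval in 3 comparisons; filled points passed the test and open points did not, and rows are genes by role. Most points lie left of 0 for enzalutamide in control cells, right of 0 for guide 1 and left of 0 for guide 2, where 22, 19 and 15 genes were called in those directions.

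The 2 guides gave opposite directions in enzalutamide. With guide 1, 19 genes were higher than in control cells on the same drug and 2 were lower, against 16.3% and 14.3% of all tested genes (30.6% in either direction). With guide 2, 0 were higher and 15 were lower, against 8.97% and 5.02% (14% in either direction; 1 higher and 19 lower at an unadjusted p under 0.05). The medians of the 37 were 0.18 and -0.14, against 0.00 and 0.02 over all tested genes. The 2 comparisons share the control libraries. The direct comparison of guide 2 with guide 1 in enzalutamide found 28 genes lower and 1 higher, against 18.8% and 22.2% of all tested genes (41% in either direction). Leaving out 1 library at a time gave 25 to 31 calls, and ERN1, EDEM2, SEC61B and PDIA5 lost theirs in at least 1 fit.

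BiP showed this split. HSPA5 was at 3012, 2838 and 2933 TPM in control cells on enzalutamide, at 3439, 3358 and 3715 with guide 1 and at 2517, 2498 and 2585 with guide 2. The 3 groups did not overlap. The log2 change was 0.26, SE 0.04, adjusted p = 0.000246 with guide 1, -0.21, SE 0.04, adjusted p = 0.00346 with guide 2, and -0.47, SE 0.04, adjusted p = 5.56e-07 for guide 2 against guide 1. HSP90B1 was at 1368, 1313 and 1405 in control cells, at 1479, 1444 and 1640.2 with guide 1 and at 1136, 1122 and 1155 with guide 2, and its 3 groups did not overlap either. It was not called with guide 1 (log2 change 0.16, SE 0.06, adjusted p = 0.074) and fell with guide 2 (-0.26), a call lost without control enzalutamide library 3 (adjusted p = 0.059) or guide 2 enzalutamide library 2 (0.0537).

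MANF was at 641, 612 and 627 TPM in control cells on enzalutamide, 693, 692 and 765 with guide 1 and 462, 454 and 482 with guide 2, again 3 separate groups. Its log2 change was 0.19 with guide 1 and -0.43 with guide 2. DNAJB11 was at 98.5, 95.1 and 95.8 in control cells, 116, 111 and 125 with guide 1 and 75.8, 77.0 and 78.8 with guide 2, without overlap (0.28 and -0.32). SDF2L1 was at 124, 109.5 and 107 with guide 1 and 71.0, 71.8 and 77.1 with guide 2, without overlap (log2 change of guide 2 against guide 1 -0.62, SE 0.12, adjusted p = 0.000853). All 12 chaperones were lower with guide 2 than with guide 1. Against control cells, 10 of the 12 rose with guide 1, all but HSP90B1 and SDF2L1, and 7 fell with guide 2.

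PDIA6 was the disulfide enzyme that rose most with guide 1. It was at 95.6, 90.6 and 97.5 TPM with guide 1 and 69.1, 65.5 and 68.1 in control cells on the drug, and 98.2, 101 and 99.1 in control cells in vehicle. The guide 1 libraries lay above all drug controls and below all vehicle controls (log2 change against drug controls 0.48, SE 0.04, adjusted p = 1.27e-07). With guide 2 it was at 63.8, 63.5 and 65.6 and was not called (-0.07). PDIA5 rose with guide 1 (0.28). PDIA4 was at 274, 259 and 268 in drug controls and 215, 218 and 228 with guide 2 (log2 change -0.28, SE 0.07, adjusted p = 0.0233), and ERO1A at 5.65, 5.50 and 5.91 and 4.49, 4.48 and 4.68 (-0.27, SE 0.08, adjusted p = 0.0324). Neither overlapped, and both fell, as did PDIA3 (-0.22). With guide 1 the oxidases ERO1A and ERO1B were not called (0.02 and 0.01).

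With guide 1 XBP1 moved against the chaperones here too, while with guide 2 it was not called. It was at 299.9, 285 and 292 TPM in control cells on enzalutamide, 226, 210.1 and 215 with guide 1 and 277, 275 and 281 with guide 2. All guide 1 libraries lay below both other groups, and they overlapped those of control cells in vehicle (205, 221 and 216). The log2 change was -0.43, SE 0.04, adjusted p = 1.79e-06 with guide 1, and -0.07, SE 0.04, adjusted p = 0.289, not called, with guide 2. XBP1 was the 1 gene of the 37 that was higher with guide 2 than with guide 1 (0.35, SE 0.04, adjusted p = 7.57e-06). CREB3L2 was at 5.13, 4.58 and 5.06 in controls, 6.87, 6.37 and 6.77 with guide 1 and 4.18, 4.11 and 4.31 with guide 2, 3 groups without overlap (0.37 and -0.19). BHLHA15 was not called with either guide (0.00 and -0.26).

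The sensors were not called with either guide against drug controls. ERN1 was at 3.25, 3.17 and 3.25 TPM with guide 1 and 2.86, 2.68 and 2.87 with guide 2. It was called lower with guide 2 than with guide 1, a call lost in 13 of the 18 fits that left out 1 library (adjusted p = 0.0507 to 0.145). ATF6 was at 3.64, 3.40 and 3.60 with guide 1 and 3.75, 3.57 and 3.72 with guide 2. EIF2AK3 was at 3.46, 3.17 and 3.31 and 3.42, 3.35 and 3.45 in the same order. All guide 1 values of ERN1 lay above the drug controls, without passing the test (adjusted p = 0.0555). The 95% intervals of the log2 change with guide 1 were 0.03 to 0.27 for ERN1, -0.09 to 0.14 for ATF6 and -0.05 to 0.17 for EIF2AK3. With guide 2 they were -0.12 to 0.12, -0.05 to 0.19 and -0.02 to 0.20, so changes of the size seen in MANF with guide 2 lay outside them.

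Degradation genes did not share 1 direction. SEL1L was at 23.5, 21.3 and 24.5 TPM in control cells on the drug and 31.1, 28.1 and 32.1 with guide 1 (log2 change 0.39, SE 0.06, adjusted p = 0.000369). EDEM2 was at 4.72, 4.35 and 4.48 and 6.30, 6.21 and 6.06 (0.38, SE 0.08, adjusted p = 0.00194). Both rose with guide 1 without overlap, as did DERL2 (0.23), and EDEM1 fell (-0.32). EDEM1 was at 43.9, 39.5 and 43.1 TPM in controls, 34.4, 32.2 and 34.1 with guide 1 and 36, 35.7 and 35.5 with guide 2. Both guide groups lay below all controls, and EDEM1 fell with guide 2 as well (-0.23). DERL3, a derlin of the retrotranslocation channel, was at 8.90, 7.38 and 9.55 in controls and 4.75, 5.49 and 4.94 with guide 2, without overlap (log2 change -0.66, SE 0.17, adjusted p = 0.0193). It fell with guide 2 together with HERPUD1 (-0.21) and DERL1 (-0.21). HERPUD1 was at 79.6, 77.1 and 79.3 with guide 1, inside the range of control cells on the drug, and at 65.4, 67.9 and 68.1 with guide 2, below both. In translocation, SSR1 was at 27.0, 24.9 and 26.9 in drug controls and 34.6, 30.9 and 34.6 with guide 1, without overlap. SSR1 (0.33), SEC61A1 (0.30) and SERP1 (0.14) rose with guide 1, and none of the 4 was called with guide 2 (log2 changes -0.09 to -0.01).

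Fewer calls held for guide 2. Leaving out control enzalutamide library 1 or 3 left 8 and 7 of the 15 calls, and leaving out guide 2 enzalutamide library 1, 2 or 3 left 8, 8 and 9. The ERO1A call was also lost without control enzalutamide library 2 (adjusted p = 0.0578). Of the genes above, ERO1A, PDIA4, EDEM1, DERL3 and HSP90B1 lost their calls in at least 1 of these fits, as did HYOU1, DNAJB9 and DNAJC10 (highest adjusted p of the 8 genes 0.157). HSPA5, MANF, DNAJB11, PDIA3, CREB3L2, HERPUD1 and DERL1 kept theirs whichever library was left out. With guide 1, CANX, DNAJB9, DNAJC3 and SERP1 lost their calls without 1 library: control enzalutamide library 2 (adjusted p = 0.0965, 0.0966, 0.0555 and 0.162) or guide 1 enzalutamide library 3 (0.089, 0.113, 0.0666 and 0.16). CANX, DNAJB9 and SERP1 lost theirs also without guide 1 enzalutamide library 1 (0.0763, 0.0655 and 0.14). The SERP1 call was further lost without library 1 of the control vehicle, control enzalutamide or guide 2 enzalutamide group, or without library 2 of the guide 1 vehicle or guide 2 enzalutamide group (adjusted p over all its losses 0.0514 to 0.162), and its groups overlapped, as did those of DNAJB9. With the deposited TPM, limma called 0 of the 37 genes with either guide in enzalutamide, and 4 with guide 1 and 11 with guide 2 had an unadjusted p under 0.05.

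**Figure D3:**
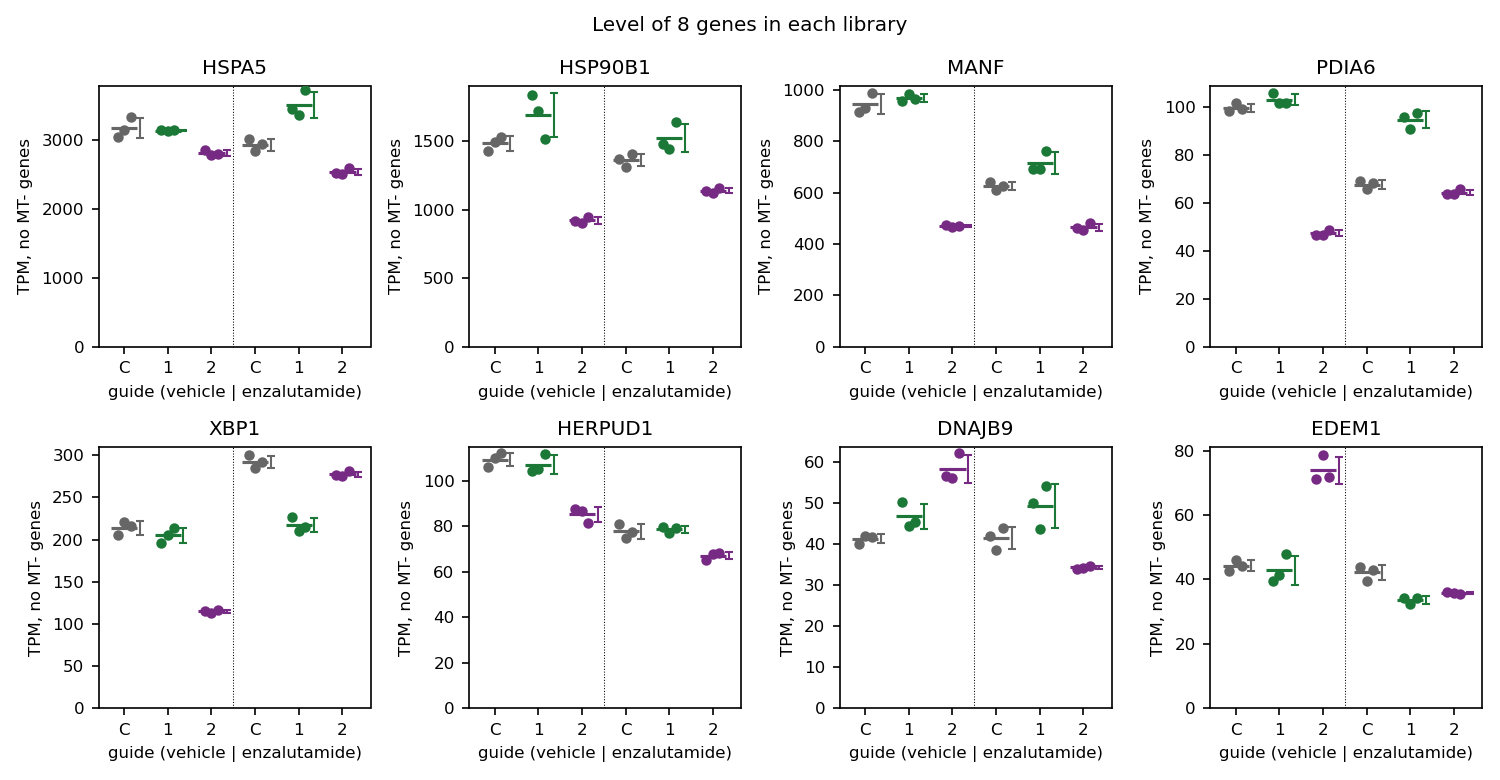
TPM of 8 genes in each library, control guide (C, grey), guide 1 (green) and guide 2 (purple), vehicle to the left and enzalutamide to the right of the dotted line; bars are the mean and the SD of 3 libraries. XBP1 is high in control and guide 2 cells on enzalutamide (275 to 299.9 TPM) and lowest in the libraries labelled guide 2 in vehicle, where DNAJB9 and EDEM1 are highest.

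In vehicle, guide 1 gave few calls, and these did not hold when single libraries were left out. Of the 37 genes 6 were higher and 5 lower than in control cells, against 21.1% and 11.1% of all tested genes (32.2% in either direction). BHLHA15 was at 21.3, 32.3 and 49.7 TPM with guide 1 against 49.6, 49.5 and 54.2 in controls (log2 change -0.63, SE 0.19, adjusted p = 0.0293). SDF2L1 was at 84.2, 103 and 134 against 147, 135 and 149 (-0.45), and SEC61B at 63.0, 66.6 and 87.5 against 87.7, 88 and 89.0 (-0.30). In each of these 3 genes library 1 was farthest from the controls and library 3 next to them or among them, and the mitochondrial share was 73.8% and 57.2% in libraries 1 and 3; its part in these calls was not tested. P4HB (protein disulfide isomerase) was at 319.7, 362 and 437 against 428, 438 and 446, with overlap (-0.24). ERO1A was at 12.4, 11.7 and 9.72 against 8.39, 9.38 and 9.47 and ERO1B at 3.60, 3.39 and 2.91 against 2.45, 2.64 and 2.44, higher without overlap. ERO1A (0.28), ERO1B (0.29), ATF6 (0.23), EIF2AK3 (0.18), HSP90B1 (0.18) and DNAJB11 (0.16) were the 6 called higher, and all 6 turned lower with the deposited TPM. CRELD2 (-0.21) was the remaining gene called lower.

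All 11 of these calls were lost without control vehicle library 1 or 3, or without guide 1 vehicle library 1 or 2, which left 0 calls by limma each, and 10 to 15 genes at an unadjusted p under 0.05. Without guide 1 vehicle library 3 there were 21. The deposited TPM gave 0 higher and 29 lower, with a median of -0.32 over all tested genes, and median-of-ratios scaling 4 and 11. XBP1 was at 195, 206 and 214 TPM and HSPA5 at 3133, 3122 and 3136, both overlapping the controls and not called (-0.06 and -0.02). HERPUD1 was at 104, 105 and 112, EDEM1 at 39.4, 41.3 and 47.9 and DNAJB9 at 50.4, 44.6 and 45.5, and none of these was called.

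The libraries labelled guide 2 in vehicle had the most calls of the 10 comparisons, with most chaperones lower and the sensors higher. Of the 37 genes 20 were lower and 11 higher than in control cells in vehicle, against 24% and 50.9% of all tested genes (74.9% in either direction). Median-of-ratios scaling gave 28 lower and 8 higher and quantile normalization 25 and 7. The median log2 change of all tested genes was 0.23 here, and median-of-ratios scaling moved it to -0.07. OGDHL RNA was above control levels in these libraries. Neither editing nor protein was measured, so whether the changes below are those of a knockout was not tested.

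MANF was at 475, 466 and 472 TPM there against 915, 931 and 989 in controls (log2 change -1.0, SE 0.04, adjusted p = 1.55e-11). PDIA6 was at 46.6, 46.6 and 48.8 against 98.2, 101 and 99.1 (-1.06), and DNAJC10, an ER disulfide reductase, at 5.47, 5.92 and 5.81 against 11.5, 12.6 and 11.6 (-0.94). None of these groups overlapped, and the mean fell by 50.2% for MANF. SDF2L1 was at 67.1, 65.9 and 66.3 (-1.10) and HSP90B1 at 918, 899 and 949 (-0.68). HSPA5 was at 2854, 2776 and 2799, below all controls (log2 change -0.17), but quantile normalization turned its change to 0.037 and that of CALR from -0.20 to 0.077.

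XBP1 was at 116, 113 and 117 TPM against 205, 221 and 216, and the mean fell by 46.2% (log2 change -0.89, SE 0.04, adjusted p = 3.79e-11). CREB3L2 was at 2.95, 3.19 and 3.05 against 8.11, 8.69 and 8.42 (-1.21) and BHLHA15 at 15.6, 16.5 and 17.4 against 49.6, 49.5 and 54.2 (-1.57). All 3 factors were thus lower without overlap. The 3 sensors were higher: ERN1 was at 4.34, 4.73 and 4.78 (0.46), ATF6 at 4.56, 4.68 and 4.64 (0.44) and EIF2AK3 at 4.88, 5.41 and 5.10 (0.66). Each sensor lay above every control library. Over all tested genes the median log2 change was 0.23 in this comparison, and 50.9% were called higher.

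Of the 8 degradation genes 5 were called higher, near the 50.9% of all tested genes, and 2 of the 5, DERL1 and DERL2, turned lower under both other scalings. EDEM1 was at 71.1, 78.6 and 71.7 TPM against 42.6, 45.9 and 44.2 (log2 change 0.73, SE 0.06, adjusted p = 8.71e-08), and EDEM2 (0.56) and SEL1L (0.51) rose with it. DERL1 went from 0.11 and DERL2 from 0.16 to lower values with median-of-ratios scaling (-0.23 and -0.18) and with quantile normalization (-0.16 and -0.081). The DERL1 call was also lost without control vehicle library 1 (adjusted p = 0.0806) or library 2 or 3 of those labelled guide 2 in vehicle (0.0548 and 0.0606). HERPUD1 was at 87.5, 86.8 and 81.5, below all controls (-0.36). SEC61A1, the channel-forming subunit, was at 385, 401 and 389 against 238, 247 and 245 (0.68), while SSR1 (-0.61) and SEC61B (-0.33) fell. DNAJB9 was at 56.7, 56.1 and 62.2, above all controls, and was the 1 chaperone called higher (0.49).

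Leukocyte markers were highest in sum in these libraries. The summed level of the 6 markers was 26.6 to 32.2 TPM there and 1.83 to 6.84 TPM in all other libraries. Against vehicle controls 3 of 3 tested were higher, as were 50.9% of all tested genes, CD68 with 21.4, 22.2 and 27.1 TPM. HLA-DRA was higher still with guide 2 on enzalutamide (log2 change 0.68 from these libraries) and rose with the drug in control cells (0.99). PTPRC did not exceed 0.003 TPM. NEAT1, a nuclear noncoding RNA, was at 586 to 704 TPM in the libraries labelled guide 2 in vehicle and at 143 to 298 elsewhere. The part of these differences in the changes of the 37 genes was not tested.

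Guide 2 against control was measured with different libraries in vehicle and in enzalutamide. There were 11 genes lower in both: HSPA5, HSP90B1, HYOU1, MANF, DNAJB11, DNAJC10, PDIA3, PDIA4, ERO1A, CREB3L2 and HERPUD1. That is 11 of the 20 lower in vehicle, 11 of the 15 lower in enzalutamide and 29.7% of the 37, against 3.53% of all tested genes lower in both. HSPA5 turned higher in vehicle with quantile normalization, as given above, and the enzalutamide calls of HSP90B1, HYOU1, DNAJC10, PDIA4 and ERO1A were among those lost on leaving out single libraries. DNAJB9, EDEM1 and DERL1 were called higher in vehicle and lower in enzalutamide, with DERL1 losing that contrast under both other scalings as above. The enzalutamide calls of DNAJB9 and EDEM1 were each lost in 5 of the fits that left out 1 library (adjusted p = 0.0607 to 0.111 and 0.0709 to 0.107). OGDHL itself was higher than in controls in vehicle and lower in enzalutamide.

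Enzalutamide was also compared with vehicle within each guide. With guide 1, 10 genes fell and 3 rose, against 23.3% and 19.5% of all tested genes (42.8% in either direction), so the share falling was near that of all genes. ERO1A fell from 12.4, 11.7 and 9.72 to 5.77, 5.30 and 6.28 TPM, without overlap (log2 change -0.85, SE 0.08, adjusted p = 5.9e-07), and HERPUD1 from 104, 105 and 112 to 79.6, 77.1 and 79.3 (-0.44). MANF (-0.44), CREB3L2 (-0.37) and EDEM1 (-0.34) fell too. CRELD2, a disulfide isomerase-like ER protein, went from 57.6, 64.3 and 73.0 to 87.9, 87.8 and 88.2, without overlap. CRELD2 (0.44), HSPA5 (0.16) and DERL2 (0.16) rose. Without guide 1 vehicle library 3 there were 21 calls. The deposited TPM gave 1 lower and 5 higher, median-of-ratios scaling 10 and 6 and quantile normalization 12 and 6.

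With guide 2, 20 genes were lower on enzalutamide than in the libraries labelled guide 2 in vehicle and 10 were higher, against 49.7% and 23% of all tested genes (72.6% in either direction). Median-of-ratios scaling gave 10 lower and 17 higher, quantile normalization 13 and 13, and the deposited TPM 18 and 3, so the balance of directions rests on the scaling. XBP1 went from 116, 113 and 117 to 277, 275 and 281 TPM (log2 change 1.26, SE 0.04, adjusted p = 6.62e-13). EDEM1 went from 71.1, 78.6 and 71.7 to 36, 35.7 and 35.5 (-1.03), and SEC61A1 from 385, 401 and 389 to 193, 193 and 198 (-1.0). Neither pair of groups overlapped. SEL1L was at 39.6, 43.2 and 42.6 and 21.4, 20.6 and 21.8 (-0.94), and EDEM2 at 9.75, 10.2 and 9.98 and 5.0, 4.92 and 5.12 (-0.87). DNAJB9 went from 56.7, 56.1 and 62.2 to 34.1, 34.3 and 34.8 (-0.74), and all 3 were lower without overlap.

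These drug comparisons share no library across guides. DNAJB11, DNAJC3, ERO1A, HERPUD1 and SERP1 were called lower with the drug in all 3, or 13.5% of the 37, against 9.87% of all tested genes. The guide 1 call of DNAJC3 was lost without guide 1 vehicle library 1 or 2 or guide 1 enzalutamide library 1 or 2 (adjusted p = 0.0585 to 0.131). That of SERP1 was lost without control vehicle library 1, any 1 of the guide 1 vehicle libraries or guide 1 enzalutamide library 2 (0.05 to 0.188). The guide 2 call of ERO1A was lost without library 3 of those labelled guide 2 in vehicle (0.0807). For guide 2, median-of-ratios scaling turned DNAJB11 (0.076), ERO1A (0.025) and SERP1 (0.054) higher and left HERPUD1 uncalled, and DNAJC3 stayed called lower (adjusted p = 0.0403). For guide 1, the deposited TPM turned DNAJB11 (0.12), DNAJC3 (0.12) and SERP1 (0.20) higher.

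The interaction tests asked whether a guide's effect differed between the media. For guide 1, 12 genes had a positive and 3 a negative interaction, against 11.6% and 15.2% of all tested genes (26.8% in either direction). XBP1 was among the negative ones (log2 difference -0.37, SE 0.06, adjusted p = 0.000357), though the deposited TPM gave 0.025. The other negative calls were less stable: EDEM1 was lost in 12 and ERO1B in 7 of the 18 fits that left out 1 library (adjusted p = 0.0515 to 0.0993 and 0.0513 to 0.0807). Only 1 negative call was left without library 1 or 3 of either control group, guide 1 vehicle library 2 or guide 1 enzalutamide library 2, and 6 were found without guide 1 vehicle library 3. HSPA5 (0.27, SE 0.06, adjusted p = 0.00337) and PDIA6 (0.43, SE 0.05, adjusted p = 2.57e-05) were among the positive ones. For guide 2, 15 were positive and 11 negative, against 19.5% and 43.7% (63.2% in either direction). Median-of-ratios scaling gave 25 and 7 for guide 2, quantile normalization 18 and 7, and the deposited TPM 6 and 8.

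**Figure D4:**
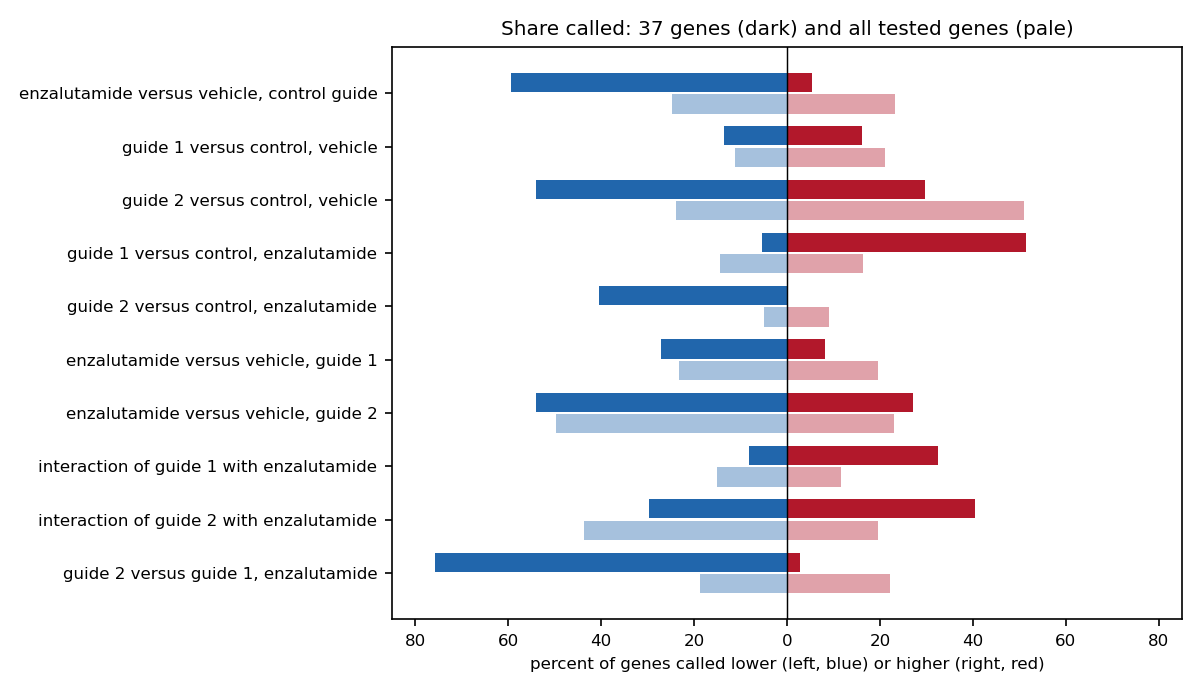
Percent of the 37 genes (dark bars) and of all 16067 tested genes (pale bars) called lower (left) or higher (right) in each of the 10 comparisons; guide 2 versus control, vehicle uses the libraries labelled so. The dark bar to the left is longer than the pale one for guide 2 against guide 1 (28 of 37 against 18.8%), for guide 2 against control in enzalutamide (15 of 37 against 5.02%) and for enzalutamide in control cells (22 of 37 against 24.8%).

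Other genes of the same pathways, from lists that hold none of the 37, are given here by their counts, to be read against the shares of all genes above. ER protein import and N-glycosylation (25 genes) had 15 lower and 0 higher with enzalutamide in control cells, and 15 higher and 1 lower with guide 1 in enzalutamide. In this list SSR3, a translocon-associated subunit, was at 189, 198 and 190.1 TPM in control cells in vehicle, 125, 115 and 124 on enzalutamide and 174, 158 and 167 with guide 1 on the drug. The 3 groups did not overlap (log2 change -0.66 with the drug, 0.45 with guide 1). SPCS3 of the signal peptidase (-0.78 and 0.71) and STT3A of the oligosaccharyltransferase (-0.44 and 0.40) were called in the same directions. With guide 2 in enzalutamide 6 of this list fell and 1 rose.

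Other folding enzymes (27 tested of 28) had 15 lower and 3 higher with enzalutamide in control cells, 12 higher and 2 lower with guide 1 in enzalutamide, and 1 higher and 2 lower with guide 2. DNAJC1, a J-domain co-chaperone, was at 3.68, 3.62 and 3.57 TPM in vehicle, 0.85, 0.83 and 0.78 on the drug and 1.71, 1.65 and 1.78 with guide 1 on the drug. PRDX4, the ER peroxiredoxin, changed by -0.92 and 0.37. Other degradation components (20) had 9 lower and 4 higher with the drug, 9 higher and 2 lower with guide 1, and 1 higher and 2 lower with guide 2. UBE2J1, the ubiquitin-conjugating enzyme of ER degradation, went from 36.4, 36.9 and 34.7 in vehicle to 15.9, 14.9 and 15.9 on the drug, with 30.1, 27.0 and 30.9 in guide 1 cells on the drug. Of 9 tested genes for other ER membrane sensors and their proteases, 2 rose and 2 fell with the drug, 1 rose with guide 1 and 0 were called with guide 2.

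The PERK and ATF4 arm (14 genes) had 10 lower and 1 higher with enzalutamide in control cells, 6 higher and 1 lower with guide 1 in enzalutamide, and 1 higher and 4 lower with guide 2. DDIT4 (-0.95), TRIB3 (-0.90) and CHAC1 (-0.57), targets of ATF4 or CHOP, fell with the drug. ASNS, the asparagine synthetase and an ATF4 target, was at 42.7, 43.4 and 43.6 TPM in control cells on the drug, 64.8, 62.5 and 64.7 with guide 1 and 33.2, 33.6 and 34.7 with guide 2, without overlap (0.56 and -0.35). In the libraries labelled guide 2 in vehicle this arm split, with 5 of the 14 higher and 7 lower, against 50.9% and 24% of all tested genes. SESN2 (2.58), PPP1R15A (2.02) and ATF3 (1.94) were higher and PSAT1 (-1.40) was lower. PPP1R15A, the stress-induced phosphatase subunit that restores translation, was at 54.2, 59.9 and 57.2 there against 13.1, 13.5 and 13.5 in controls.

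ER export and KDEL retrieval (22 genes) had 11 lower and 1 higher with enzalutamide in control cells, 7 higher and 0 lower with guide 1 in enzalutamide, and 2 lower with guide 2. The cargo receptors TMED2 (-0.56) and TMED9 (-0.52) fell with the drug, and SAR1A, the GTPase that starts vesicle budding, rose (0.47). Chaperones of the cytosol and mitochondria (15) had 7 lower and 3 higher with the drug, 5 higher and 1 lower with guide 1, and 2 lower with guide 2. HSPB1, a small heat shock protein, fell with the drug (-1.59), and HSP90AA1 rose (0.31), so lower calls were not confined to the ER. In vehicle with guide 1, 7 of these 15 were higher and 4 lower, against 21.1% and 11.1% of all tested genes. The luminal markers had 9 of 12 lower and 3 higher with enzalutamide in control cells, 8 higher and 2 lower with guide 1 on the drug, and 6 higher and 0 lower with guide 2.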

How the data were processed

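RNA-seq of 18 libraries in 6 groups was analysed, from poly(A)-selected libraries sequenced as read pairs, per the labels' protocols. The authors deposited TPM values per gene, which are scaled for gene length and library. STAR and GRCh38 are named, without versions, per the submitters' processing notes. Which tool counted reads, and on which annotation, is not given in the sources used here. TPM keeps no read totals, so depth and the precision it sets are unknown.

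Of 37347 rows, 10345 without a gene name (4.24% to 9.68% of the deposited TPM), 37 mitochondrially encoded ones and 69 of 3 symbols with 5 rows or more were left out. Rows of 32 symbols with 2 to 4 rows were summed. Columns were rescaled so that all non-mitochondrial rows, those left out included, sum to 1000000. The genes kept therefore sum to less, by a share that differs between libraries. Values were tested as log2(TPM + 1), which understates the change of low genes, with limma 3.58.1 in R 4.3.3: 1 mean per group over all 18 libraries (12 residual degrees of freedom), a trend in the variance, a filter that kept genes reaching 1 TPM in 3 libraries, and Benjamini-Hochberg adjustment over all tested genes. The test was tried on simulated data. Intervals are 95% intervals of that fit.

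The 37 genes and 11 other gene lists (163 genes), among them 1 of luminal markers and 3 of other cell types, were chosen with earlier results of these data known. By the rule for naming, values per library are given for a set of core genes and for up to 6 called genes of largest change per comparison, and up to 4 called genes per other list and comparison could be named. Other genes among the 37 are given by their log2 change. Outside this rule, PTPRC and NEAT1 were named after their values were seen. Alternatives were the deposited TPM with mitochondrial genes, median-of-ratios scaling, quantile normalization, pseudocounts of 0.1 and 5, no filter or one at 5 TPM, other sets of libraries, array weights, a replicate block, and each library left out. Gene positions are from GENCODE 29, and promoter windows from RefSeq.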

Additional observations from a re-analysis of the deposited data

Results flagged for a closer look

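The genes below were picked out because the interaction term of the limma fit differed from 0, so that the effect of the drug differed between cells with an OGDHL guide and control cells. Each value is the log2 difference between the 2 drug effects, which equals the difference of the guide's effect between media.

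With guide 1, SDF2L1 differed by 0.75: its drug effect was -0.64 in control cells and 0.11 with guide 1. EDEM2 differed by 0.53 (-0.43 in control cells, 0.09 with guide 1). SEC61B differed by 0.51 (-0.40 and 0.11) and SEC61A1 by 0.46 (-0.31 and 0.15). In guide 1 cells, vehicle libraries 1 and 2 lay below every drug library in SDF2L1, EDEM2, SEC61B and SEC61A1, and vehicle library 3 lay above every one. SDF2L1 was at 84.2, 103 and 134 TPM in vehicle and at 124, 109.5 and 107 on the drug. The mitochondrial share of these vehicle libraries was 73.8%, 69.9% and 57.2%, and its part in these differences was not tested. PDIA6 differed by 0.43 (-0.55 and -0.12) and HYOU1 by 0.42 (-0.38 and 0.04). HSPA5 differed by 0.27 (-0.11 and 0.16). XBP1 went the other way, with a difference of -0.37 (0.45 and 0.08), which turned positive with the deposited TPM.

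With guide 2, the comparison rests on the libraries labelled guide 2 in vehicle, in which OGDHL RNA was above control levels. BHLHA15 differed by 1.31 (-0.67 in control cells, 0.64 with guide 2), CREB3L2 by 1.02 (-0.67 and 0.36) and XBP1 by 0.81 (0.45 and 1.26). PDIA6 differed by 0.99 (-0.55 and 0.43), PDIA5 by 0.87 (-0.47 and 0.40), HSP90B1 by 0.43 (-0.12 and 0.30) and HERPUD1 by 0.15 (-0.49 and -0.34). The HERPUD1 call was lost without any 1 of 10 of the 18 libraries: library 2 or 3 of either control group or either guide 2 group, and guide 1 enzalutamide library 1 or 3 (adjusted p = 0.0503 to 0.122). Negative differences were those of EDEM1 at -0.96 (-0.07 and -1.03), DNAJB9 at -0.75 (0.01 and -0.74), and the 3 sensors EIF2AK3 at -0.57 (0.09 and -0.48), ERN1 at -0.46 (-0.11 and -0.56) and ATF6 at -0.37 (0.10 and -0.27). Over all tested genes the median difference was -0.20 too, with 43.7% called negative and 19.5% positive. Quantile normalization turned the drug effect of ATF6 with guide 2 to 0.030. The part of this general shift in the negative differences was not tested.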

How the results depend on the processing

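Of 215 calls of the 37 genes over the 10 comparisons, none changed sign with another pseudocount or array weights, or with any library left out. Leaving out a library of a group outside the comparison cannot change the sign. Nor can another filter, own libraries, the replicate block or leaving out the guide 2 vehicle libraries, since the log2 changes stay the same. Only calls could be lost there: 5 with no filter, 23 with own libraries and 7 with the replicate block. The filter at 5 TPM lost 0 of the 189 calls it kept. Fits without the guide 2 vehicle libraries lost 7 of the 128 calls in comparisons that could be fitted. The replicate block left 1 of the 3 negative calls for the interaction of guide 1. With the deposited TPM 14 changed sign and 112 were no longer called, with median-of-ratios scaling 10 and 9, and with quantile normalization 12 and 13. The deposited TPM called 8 genes for enzalutamide in control cells, 29 and 0 for guide 1 in vehicle and in enzalutamide, 0 for guide 2 in enzalutamide, 6 for the drug with guide 1, 4 and 14 for the interactions of guide 1 and guide 2, and 10 for guide 2 against guide 1. Fits on a comparison's own libraries called 0 for guide 1 in vehicle (6 at an unadjusted p under 0.05) and 7 for the drug with guide 1. Array weights called 33 for guide 1 in vehicle, 24 for guide 2 in enzalutamide, 27 for the drug with guide 1 and 26 for the interaction of guide 1. Leaving out 1 library gave 0 to 21 calls for guide 1 in vehicle, 7 to 17 for guide 2 in enzalutamide and 10 to 21 for the drug with guide 1. The summed level of the 37 genes was 5372, 3936 and 4328 TPM for control, guide 1 and labelled guide 2 in vehicle with the deposited TPM and 4609, 4856 and 3783 on enzalutamide. With median-of-ratios scaling it was 12449, 12384 and 7872 in vehicle and 10792, 12408 and 9460.3 on enzalutamide. The cause of these shifts was not tested.

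The reversed log2 changes were as follows. For guide 1 in vehicle the deposited TPM gave HSP90B1 -0.31, DNAJB11 -0.33, ERO1A -0.15, ERO1B -0.053, ATF6 -0.11 and EIF2AK3 -0.13. For the drug with guide 1 it gave DNAJB11 0.12, DNAJC3 0.12, PDIA5 0.012, PDIA6 0.22 and SERP1 0.20, and for the interaction of guide 1 ERO1B 0.0034, XBP1 0.025 and EDEM1 0.11. For labelled guide 2 in vehicle quantile normalization gave HSPA5 0.037, CALR 0.077, DERL1 -0.16 and DERL2 -0.081, and median-of-ratios scaling DERL1 -0.23 and DERL2 -0.18. For the drug with guide 2 median-of-ratios scaling gave HSPA5 0.15, HYOU1 0.054, DNAJB11 0.076, ERO1A 0.025, DERL1 0.0060, DERL2 0.032 and SERP1 0.054, and quantile normalization DNAJB11 0.023, ERO1A 0.059, ATF6 0.030, DERL1 0.0032, DERL2 0.0064 and SERP1 0.028. For the interaction of guide 2 quantile normalization gave CALR -0.041 and DERL2 0.10, and median-of-ratios scaling DERL2 0.18.

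With the replicate number as a block, the calls were 25 for enzalutamide in control cells, 9, 31, 21 and 13 for guide 1 and guide 2 against control in vehicle and then in enzalutamide, 13 and 30 for the drug with guide 1 and guide 2, 13 and 25 for the interactions, and 29 for guide 2 against guide 1. Same-numbered libraries of different groups correlated at -0.2918 to 0.1099 in their deviations. For some pairs of groups, such as control and guide 1 cells in vehicle, all 3 libraries correlated best with the same-numbered one. For others, such as control cells in the 2 media, 0 did. Whether same-numbered libraries were handled together cannot be told from these values.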
